A study of Homo sapiens with 6 samples.

Results

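Transcripts of the NF-kB subunits and of the genes that feed back on NF-kB were followed through SLAM-seq in MOLM-13 cells, an established human acute myeloid leukemia line. The set holds 10 of the 25420 genes in the tables. RELA, RELB, REL, NFKB1 and NFKB2 encode the subunits, and NFKBIA, NFKBIZ, TNFAIP3, IER3 and BIRC3 are targets of NF-kB that act back on the pathway or on cell survival. The genes were found by matching the Entrez identifiers of the tables to these symbols, and the reads and T > C reads of a gene's 3′ UTR entries were added up.

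The cells were grown in medium with serum and kept for 2 h in 10 µM C646, a small-molecule inhibitor of the acetyltransferases CBP and p300, or in the vehicle DMSO as control. Both groups received 100 µM 4-thiouridine (4sU) for the last 1 h, with 3 libraries per group. 4sU is a uridine analogue that cells build into new RNA, and after alkylation the sequencer reads it as C where the genome has T. A read with at least 1 such conversion is called a T > C read here, and its share among all reads of a gene (the T > C share) is a measure of how much of the mRNA was made during the labelling. The study asked which genes respond to C646 at the level of new transcripts. No library without 4sU was analysed here, so the T > C share of unlabelled RNA was not measured.

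NF-kB dimers are held in the cytoplasm by inhibitors of the IkB family, of which IkBα, the product of NFKBIA, is the best known. Signals from cytokine and Toll-like receptors activate the IKK kinases, which mark IkBα for degradation, so that the dimers enter the nucleus and recruit coactivators, CBP and p300 among them. The dimers then switch on the genes of their own inhibitors, and many of these mRNAs are short-lived, in part through AU-rich elements in their 3′ UTRs. In myeloid cells the pathway drives inflammatory genes and genes of survival.

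The libraries held 7252597 to 10225448 reads on 3′ UTRs, and 6.34% to 6.71% of them were T > C reads in C646 against 8.74% to 8.86% in DMSO. Of 12 myeloid markers, 9 had at least 10 reads in every library, among them CD33, FLT3, MPO and LYZ, and CSF2RA was at 0. Of 17 markers of other cell types, 3 reached this level (CD3D, NKG7 and PECAM1), while CD3E, COL1A2, VWF and HBB were at 0 in every library. The summed level of these 17 genes was 228 to 268 counts per 1000000 reads (CPM) in DMSO and 134 to 208 CPM in C646, and its part in the results was not tested. That of the myeloid markers was 3684 to 4018 CPM and 3833 to 4171 CPM.

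Short AU-rich stretches mark the 3′ UTRs of unstable mRNAs, and the first TATTTAT in the 3′ UTRs of 4 of the genes is shown because they include NFKBIA and TNFAIP3, which are among the genes with the highest T > C shares. The windows are from GRCh38, 5′ to 3′ on the strand of the gene, with every TATTTAT in capitals.
NFKBIA, chr14:35401698-35401727, minus strand: accacattttaTATTTATtgtgcttcgagt
TNFAIP3, chr6:137882298-137882327, plus strand: gtaattcacttTATTTATtttattacaaac
REL, chr2:60922611-60922640, plus strand: atataatactaTATTTATactgtatatata
IER3, chr6:30743652-30743681, minus strand: ctcctaattaaTATTTATatgTATTTATgt

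The 3′ UTR of NFKBIA (Entrez 4792) lies on chromosome 14 from 35401510 to 35402012 and holds 2 copies of TATTTAT and 3 of ATTTA, the shorter motif inside it. Copies were counted on the strand of the gene and could overlap. Among 1179 3′ UTRs of expressed genes between 0.8 and 1.25 times its length, 15.3% hold a TATTTAT and 2.37% hold at least as many copies as NFKBIA. TNFAIP3 holds 2 copies and REL 3, and in 3′ UTRs of like length 41.6% and 73.3% hold at least 1. At least as many copies are held by 13.6% and 27.7% of them. IER3 holds 4, and of like 3′ UTRs 20.6% hold any and 0.297% hold at least as many. Counts are given for 9 of the 10 genes. NFKBIZ, NFKB1 and NFKB2 hold ATTTA (3, 3 and 1 copies) but no TATTTAT, and RELA and RELB hold neither.

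NF-kB dimers bind the kappaB motif, and its consensus of 10 bases was searched on both strands of the promoter windows of RefSeq (GRCh38.p14, 250 bases before to 50 after a start site). Windows were available for 8 of the 10 genes (not RELB and IER3), and 7 of the 8 hold a match, in 9 of their 13 windows. Of all 35116 promoter windows of this length, 5.91% hold one. One match per gene is shown, since these are the letters that NF-kB can read in its own genes, 5′ to 3′ on the strand of the gene with the match in capitals.
NFKBIA, chr14:35404811-35404840, minus strand: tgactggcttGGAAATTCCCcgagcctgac
NFKBIZ, chr3:101827757-101827786, plus strand: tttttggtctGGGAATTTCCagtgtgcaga
TNFAIP3, chr6:137867182-137867211, plus strand: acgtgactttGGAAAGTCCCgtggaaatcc
NFKB1, chr4:102501300-102501329, plus strand: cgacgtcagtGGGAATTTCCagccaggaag
NFKB2, chr10:102394461-102394490, plus strand: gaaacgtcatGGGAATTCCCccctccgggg
REL, chr2:60881517-60881546, plus strand: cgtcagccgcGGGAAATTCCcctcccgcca
BIRC3, chr11:102317275-102317304, plus strand: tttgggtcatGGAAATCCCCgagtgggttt

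The matches of NFKBIA and BIRC3 and that shown for TNFAIP3 read on the opposite strand, and that shown for NFKB2 reads on both. Some matches of NFKB2 and of REL overlap, shifted by a single base. RELA has no match in either of its 2 windows. A match describes the letters and not binding, which was not measured here.

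In DMSO, the 3 feedback genes with reads in every library had higher T > C shares than any subunit, without overlap. The share of NFKBIA was 76.9%, 77.2% and 73.4% in the 3 libraries, that is 75.8% ± 2.13 (SD, n = 3), so that most of its reads carried a conversion. NFKBIZ, which encodes a nuclear IkB protein that helps induce secondary response genes, had 55.2%, 83.3% and 76.5% on 17 to 29 reads per library, 71.7% ± 14.7. TNFAIP3 encodes A20, a ubiquitin-editing enzyme that ends NF-kB signalling, and had 62.3%, 70.3% and 77.0%, 69.9% ± 7.37. Over the 8607 genes with at least 50 reads per DMSO library on average, the median share was 11.6%, with quartiles of 6.82% and 19.4%. NFKBIA stood above 99.7% of these genes, with 28 genes higher, and TNFAIP3 above 99.3%. NFKBIZ, itself under 50 reads, would stand above 99.5%.

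Of the subunits, REL had the highest share in DMSO. REL encodes c-Rel, a subunit with a transactivation domain that is prominent in blood cells, and its shares were 35.9%, 31.7% and 23.7%, a mean of 30.4% ± 6.23 (SD, n = 3) and above 88.8% of the genes. NFKB1, which encodes p105 and its product p50, had 15.4% ± 2.53, and RELA, the gene of the main transactivating subunit p65, had 12.6% ± 2.64. RELB, the partner of p52 in the noncanonical pathway, lay between them at 14.6% ± 6.05. NFKB2, the gene of p100 and its product p52, was last with 5.63% ± 3.50 on 43 to 57 reads per library, above 17.7% of the genes. Its shares rest on only 1, 3 and 4 T > C reads. By library it stood above 3.24% to 40.9% of the genes, so its rank is uncertain.

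Ordered by mean share, NFKBIA, NFKBIZ and TNFAIP3 came first, and the ranges of neighbours among them overlapped. The libraries of TNFAIP3 and REL did not overlap, nor did those of REL and NFKB1. NFKB1, RELB and RELA overlapped as neighbours, while every library of RELA lay above every library of NFKB2. The share also depends on how many T positions a read covers, which ranged from 18.2 per read in NFKB2 to 38.4 in NFKB1 (31.6 in the median tested gene). Counted as conversions per 100 covered T, the DMSO means were 6.75 ± 1.09 for TNFAIP3, 5.15 ± 0.232 for NFKBIA and 5.08 ± 2.20 for NFKBIZ (SD, n = 3). They were 2.78 ± 0.402 for REL, 1.17 ± 0.239 for NFKB1, 0.867 ± 0.243 for RELA, 0.855 ± 0.567 for RELB and 0.413 ± 0.259 for NFKB2. By this measure the means of the feedback genes were again the highest, but NFKBIZ and REL overlapped, at 3.22 and 3.24 in DMSO replicate 1. RELA and NFKB2 overlapped too, at 0.602 in DMSO replicate 3 of RELA and 0.611 in DMSO replicate 2 of NFKB2.

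**Figure D1:**
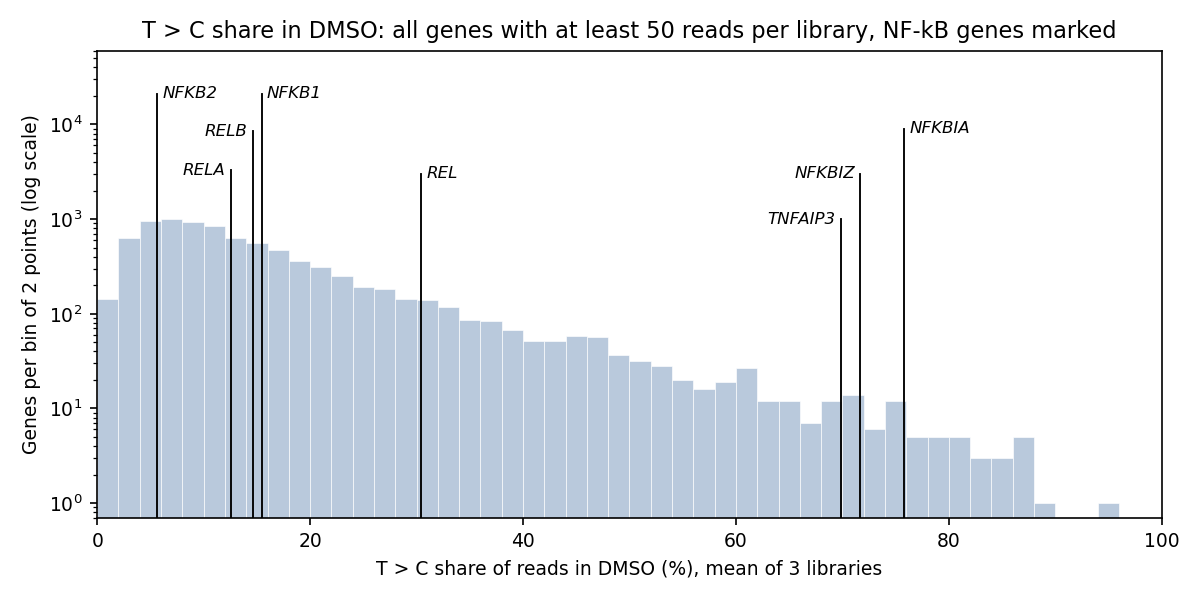
Number of genes (log axis) by T > C share in DMSO in percent, in bins of 2 points, for 8607 genes with at least 50 reads per DMSO library on average. Vertical lines mark the mean shares of the 8 NF-kB genes with reads in every library (NFKBIZ and NFKB2 are themselves under 50 reads): NFKBIA at 75.8%, NFKBIZ and TNFAIP3 stand in the far right tail, REL at 30.4% in the upper flank and the other subunits in the body of the distribution.

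IER3 and BIRC3 gave no usable value. IER3 encodes an early response protein that modulates apoptosis, and its entry on chromosome 6 and 5 more on alternative contigs held 0 reads in all 6 libraries, which allows up to 0.416 CPM (3 reads) in the shallowest. In the tables, 119 of 160 genes with 5 or more entries on such contigs had no read, against 9670 of all 25420 genes, and whether reads of IER3 were lost at its repeated places was not tested. BIRC3 encodes cIAP2, a ubiquitin ligase of TNF receptor complexes, and had 3, 0 and 0 reads in DMSO and 0, 4 and 0 in C646. Each other gene has a single entry that overlaps no entry of another gene and lies, but for at most 6 bases, in a UTR of that gene in GENCODE release 44.

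After C646, the T > C reads of 3 subunits fell when set against total mRNA. T > C reads were scaled as CPM of all reads on 3′ UTRs of the library, and less new RNA per cell cannot be told apart from fewer labelled cells in such bulk samples. For REL (Entrez 5966, chromosome 2 from 60922536 to 60928156) they were 14.6, 16.4 and 9.03 CPM in DMSO and 3.05, 3.80 and 4.17 CPM in C646. Every C646 library lay below every DMSO library, and REL fell by 1.85 on the log2 scale (3.60-fold lower, standard error 0.28, adjusted p = 3.43e-06, quasi-likelihood test of edgeR, Benjamini-Hochberg adjusted over all genes). For RELA (Entrez 5970, chromosome 11 from 65653596 to 65654377) they were 12.1, 10.3 and 7.95 CPM against 3.31, 2.33 and 3.97 CPM, with no overlap. RELA fell by 1.65 (3.14-fold lower, standard error 0.30, adjusted p = 4.31e-05, edgeR). For NFKB1 (Entrez 4790, chromosome 4 from 102616595 to 102617302) they were 10.8, 11.2 and 10.1 CPM against 3.84, 2.09 and 5.66 CPM, again without overlap. NFKB1 fell by 1.45 (2.73-fold lower, standard error 0.30, adjusted p = 0.000215, edgeR).

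RELB (Entrez 5971, chromosome 19 from 45037791 to 45038198) had 15, 6 and 9 T > C reads in DMSO and 1, 0 and 1 in C646. With C646 set to the floor of 3 reads per library, the mean T > C reads of RELB in DMSO were 3.41 times that floor. This figure takes the DMSO mean as it stands, without its counting error, so it is not a strict lower bound. The filter on low counts left this gene out of the test, and a fit with no filter called it lower (adjusted p = 0.00535, edgeR). Its other reads, those without a conversion, were 7.69 ± 3.26 CPM in DMSO and 5.84 ± 0.905 CPM in C646 (SD, n = 3) and overlapped. NFKB2 (Entrez 4791, chromosome 10 from 102402377 to 102402529) had 1, 3 and 4 T > C reads in DMSO and 7, 3 and 6 in C646. It too was left out by the filter, and a difference was not detectable at this depth (adjusted p = 0.569 with no filter, edgeR).

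None of the feedback genes passed both cutoffs in T > C reads. NFKBIA had 41.1, 48.9 and 48.3 CPM of T > C reads in DMSO and 41.7, 35.7 and 40.0 CPM in C646. The groups overlapped, with a log2 change of −0.23 (standard error 0.16, adjusted p = 0.224, edgeR). TNFAIP3 (Entrez 7128, chromosome 6 from 137881320 to 137883314) had 6.97, 8.88 and 14.4 CPM against 3.97, 4.54 and 6.46 CPM. Its C646 libraries all lay below those of DMSO, and its log2 change of −0.99 (standard error 0.30, adjusted p = 0.00593, edgeR) passed the cutoff on p but narrowly missed that of 1 on the fold. Its call depended on the settings. Scaled by plain totals or tested with DESeq2 on the scale of all reads it was −1.01 and called, and without DMSO replicate 1 or C646 replicate 3 it was −1.21 or −1.23 and called. Without DMSO replicate 3 it was −0.65 (adjusted p = 0.120, edgeR), and the cutoff on p was also missed without DMSO replicate 2 or C646 replicate 1 or 2 (adjusted p = 0.0117, 0.0263 and 0.0274). NFKBIZ (Entrez 64332, chromosome 3 from 101859372 to 101861025) had 1.69, 2.08 and 1.75 CPM against 2.65, 2.95 and 4.47 CPM. Every C646 library lay above every DMSO library on 13 to 45 T > C reads each, but the log2 change of 0.88 (standard error 0.44, adjusted p = 0.0924, edgeR) did not pass. The share of all genes with C646 above DMSO in this way was not counted.

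In all, 6 of the 10 genes were tested in T > C reads, and 3 of them were called lower (adjusted p at most 0.01 and absolute log2 fold change at least 1). Of the 7722 tested genes, 33% were called lower. None of the 6 was called higher, against 2.97% of all tested genes, and 4 of the 6 had an unadjusted p under 0.05, against 60.8% of all tested genes. The median log2 fold change of the 6 was −1.22, against −0.83 for all tested genes. REL, RELA and NFKB1 had larger falls than all but 15.0%, 19.5% and 25.2% of the tested genes, while 75.9% and 95.1% of the genes had lower values than NFKBIA and NFKBIZ. In 4 of the 6 (REL, RELA, NFKB1 and TNFAIP3) the C646 libraries all lay below the DMSO libraries, a pattern seen in 55.8% of the tested genes.

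**Figure D2:**
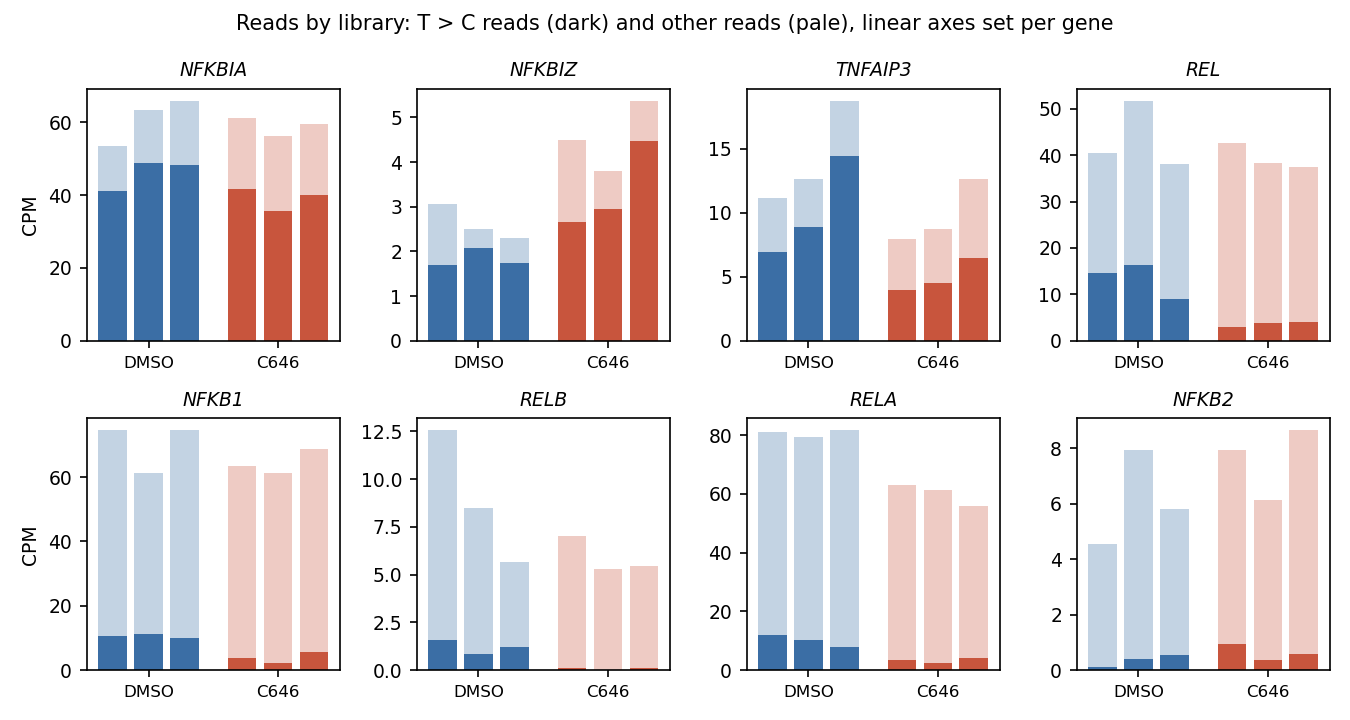
Reads of the 8 genes in CPM (linear axes from 0, set per gene) in each of the 3 DMSO libraries (blue) and 3 C646 libraries (red), split into T > C reads (dark) and other reads (pale). The dark part is smaller in every C646 library than in every DMSO library in REL, NFKB1, RELB, RELA and TNFAIP3 (10.1 and 4.99 CPM on average in TNFAIP3), and the pale part of RELA is smaller as well. NFKBIA keeps most of its dark part (46.1 CPM in DMSO and 39.2 CPM in C646 on average), and NFKBIZ is higher in C646.

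The T > C share compares reads with and without a conversion within a gene and needs no scaling between libraries. It was lower in every C646 library than in every DMSO library for 6 of the 8 genes with reads throughout, a pattern found in 64.5% of the tested genes. REL went from 30.4% to 9.41% ± 2.04 (SD, n = 3), with 7.17%, 9.94% and 11.1% in the C646 libraries. NFKB1 went from 15.4% to 5.89% ± 2.42 and RELA from 12.6% to 5.38% ± 1.65. RELB, at 14.6% in DMSO, had 1, 0 and 1 T > C reads among 53, 43 and 55 reads in C646. The 0 among 43 allows a share of up to 6.98% when set to 3 reads, and the exact two-sided 95% interval reaches 8.22%. Among the feedback genes, TNFAIP3 went from 69.9% to 51.1% ± 1.06 and NFKBIA from 75.8% to 66.5% ± 2.46. NFKBIZ (73.2% ± 12.8 in C646) and NFKB2 (8.19% ± 3.05) overlapped between groups. For the 6 genes without overlap, two-sided exact permutation tests gave p = 0.1, the smallest that 3 libraries against 3 allow (0.133 after Benjamini-Hochberg adjustment over 8 genes), and for NFKBIZ and NFKB2 they gave exact p = 0.8 and 0.4 (0.8 and 0.457 adjusted).

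As a ratio, REL kept 30.9% of its DMSO share in C646, NFKB1 38.2% and RELA 42.9%, below the median of 55.4% over the tested genes. TNFAIP3 kept 73.1% and NFKBIA 87.7%, above that median, but at a high share such a ratio moves less for the same change in odds. On the log2 scale of the odds, TNFAIP3 at −1.17 lay below the median of all genes of −1.004, with 41.6% of genes lower still. No ratio is given for RELB, which was at the floor in C646. In C646 the median share of genes with at least 50 reads was 6.38%, and NFKBIA and TNFAIP3 still stood above 99.8% and 99.2% of them. REL went from above 88.8% of the genes to above 67.1%.

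**Figure D3:**
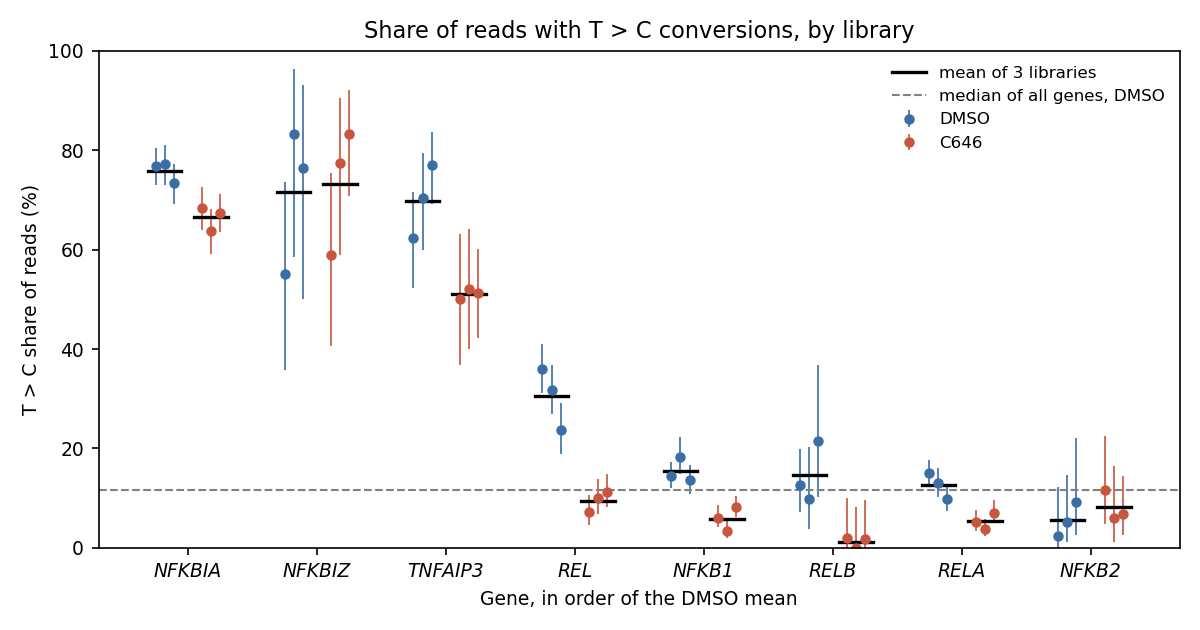
T > C share of reads (percent) of the 8 genes in each DMSO library (blue) and C646 library (red), with exact 95% binomial intervals (Clopper-Pearson, counting error only) and black bars at the mean of 3 libraries. REL, NFKB1, RELB and RELA separate the groups, with every C646 library at 11.1% or less beside a DMSO median of all genes of 11.6% (dashed), TNFAIP3 and NFKBIA separate at shares of 50% or more, and NFKBIZ and NFKB2 overlap.

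The odds that a read of a gene was a T > C read were tested in a model with a factor for each library. They fell by 2.07 on the log2 scale for REL (standard error 0.33, adjusted p = 1.90e-05, edgeR's quasi-likelihood test), by 1.52 for NFKB1 (0.31, adjusted p = 0.000291) and by 1.33 for RELA (0.31, adjusted p = 0.000839). These 3 of 6 tested genes were called lower, against 38.3% of all 7722 genes. None was called higher, against 0.79% of all genes, and 5 of the 6 had an unadjusted p under 0.05, against 66.7% of all genes. TNFAIP3 was at −1.17 (standard error 0.46, adjusted p = 0.0323, edgeR), NFKBIA at −0.66 (0.26, adjusted p = 0.0294) and NFKBIZ at 0.30 (0.79, adjusted p = 0.750). The median was −1.25 for the 6 genes and −1.004 for all. Without DMSO replicate 1, RELA was at −1.16 and lost its call (adjusted p = 0.0125, edgeR).

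Total mRNA was compared through all reads. Of the 8 genes tested, edgeR called none lower or higher, against 1.88% and 5.89% of 10851 genes, and DESeq2 called none either. The median log2 fold change of the 8 was −0.13, against −0.0030 for all. An unadjusted p under 0.05 was seen in 2 of them, RELA and NFKBIZ, against 42.6% of all genes. RELA had 81.1, 79.3 and 81.7 CPM in DMSO and 63.0, 61.4 and 56.0 CPM in C646, the only one of the 8 whose C646 libraries all lay below those of DMSO, a pattern seen in 23.1% of all genes. The log2 change of RELA was −0.42 (standard error 0.13, adjusted p = 0.0249, edgeR), and its reads without a conversion were also lower, at 56.9 ± 4.24 CPM against 70.6 ± 2.77 (SD, n = 3). NFKBIZ had 3.06, 2.50 and 2.29 CPM against 4.50, 3.80 and 5.36 CPM, with no overlap and a log2 change of 0.79 (standard error 0.36, adjusted p = 0.106, edgeR). The share of all genes that lay higher without overlap was not counted. NFKBIA was at −0.05, NFKB1 at −0.12 and REL at −0.14, and TNFAIP3, RELB and NFKB2 at −0.53, −0.60 and 0.33.

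Reads without a conversion come from older RNA or from new RNA in which no conversion was read, and the deposited counts do not separate these. For NFKBIA such reads were 14.8 ± 2.61 CPM in DMSO and 19.7 ± 0.588 CPM in C646 (SD, n = 3), beside all reads of 60.8 ± 6.56 and 58.8 ± 2.53 CPM. They were higher in every C646 library, but how many of all genes show this was not counted. Those of REL were 30.1 ± 4.73 and 35.7 ± 3.28 CPM and of NFKB1 59.4 ± 8.08 and 60.7 ± 2.17 CPM, and both overlapped.

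**Figure D4:**
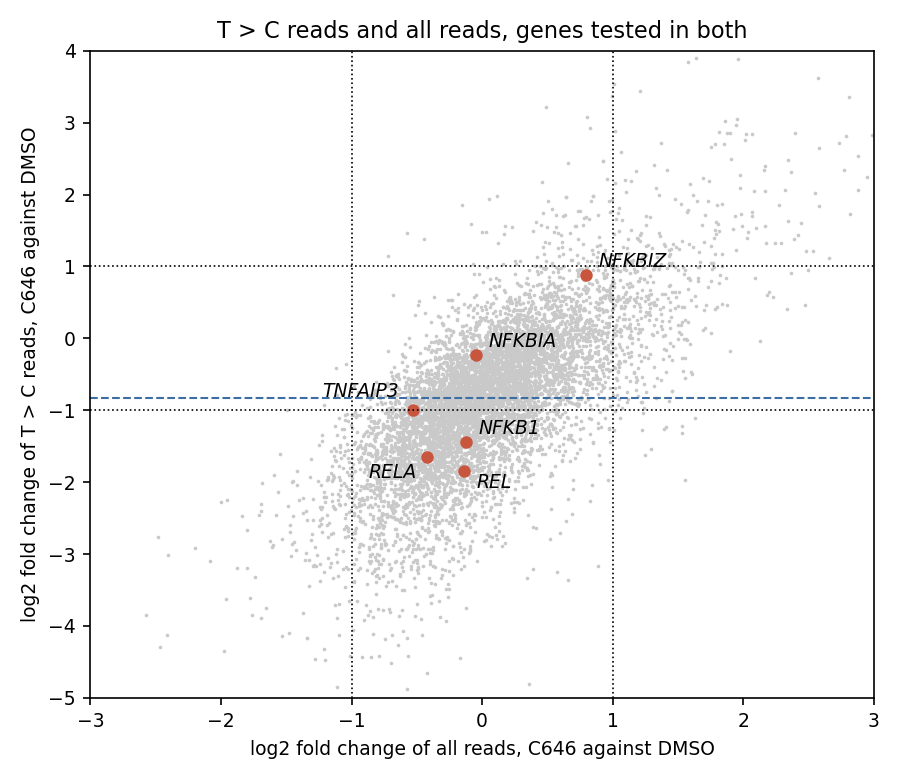
log2 fold change of T > C reads against that of all reads, C646 against DMSO, for the 7722 genes tested in both (grey, 50 of them outside the axes) and the 6 tested NF-kB genes (red). Dotted lines mark the cutoffs at −1 and 1, and the dashed line the median of T > C reads at −0.83: REL, RELA and NFKB1 lie under the lower cutoff in T > C reads at all-read changes between −0.42 and −0.12, and TNFAIP3 sits on it.

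The scaling of the T > C reads sets the zero of these comparisons. With TMM computed on the T > C reads, which takes out what most genes share, the median of all tested genes moved from −0.83 to 0.0075, and the calls over all genes from 2548 lower and 229 higher (8.25% of the calls higher) to 602 and 706 (54.0% higher), which are 7.8% and 9.14% of the tested genes. On this scale REL stayed called lower at −1.01 (standard error 0.28, adjusted p = 0.00624, edgeR), while RELA at −0.81 (adjusted p = 0.0377) and NFKB1 at −0.62 (adjusted p = 0.117) were no longer called. NFKBIZ rose by 1.71 (standard error 0.43, adjusted p = 0.00259, edgeR) and NFKBIA changed sign to 0.61 (0.16, adjusted p = 0.00462), under the fold cutoff. TNFAIP3 was at −0.16.

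**Figure D5:**
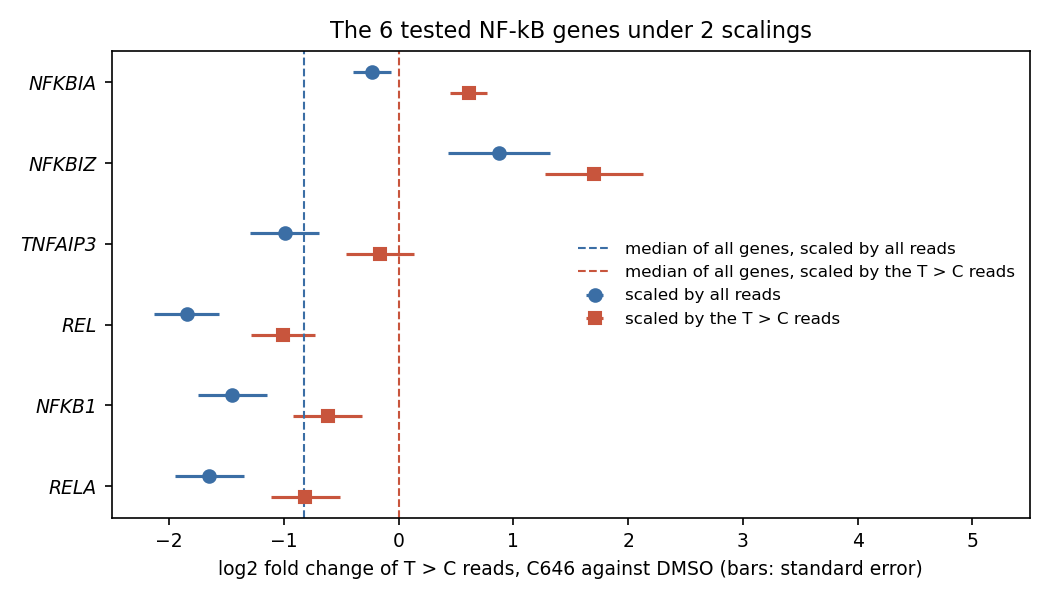
log2 fold change of T > C reads with its standard error for the 6 tested genes, scaled by all reads (blue circles) or by the T > C reads (red squares), with the median of all tested genes on each scale as a dashed line of the same color. The change of scale moves all 6 genes right by about the same amount as the median, and NFKBIA crosses 0.

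Of the other genes of the pathway, several inhibitors fell. Of 15 genes listed as inhibitors of NF-kB signalling or as nuclear IkB proteins, 11 were tested in T > C reads. Of these, 7 were lower and none higher, that is 63.6% and 0%, against 33% and 2.97% of all tested genes. Their median log2 fold change was −1.31. Here and in the other lists, genes are named from those called with an average of at least 20 T > C reads in a group. TNIP2 (−2.90) and TNIP1 (−2.79), ubiquitin-binding partners of A20, and BCL3 (−2.67), an atypical nuclear IkB protein, fell most among these. TNIP2 had 8.87, 10.6 and 6.20 CPM of T > C reads in DMSO and 0.795, 1.84 and 0.795 CPM in C646, with no overlap. With TMM on the T > C reads, 2 of the 11 were lower (TNIP1 and TNIP2) and 1 higher, against 7.8% and 9.14% of all tested genes. BCL3 was no longer called on that scale. In all reads 1 of the 12 tested genes of this list was lower, against 1.88% of all genes, and the median was −0.43.

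Of 27 genes that relay the signal, 18 were tested, 5 were lower and none higher, with a median of −0.84. The share lower was 27.8%, below the 33% of all tested genes. IRAK1 (−2.93), a kinase under the Toll-like and interleukin-1 receptors, TAB1 (−1.69), a subunit of the TAK1 kinase complex, and MYD88 (−1.50), the adaptor of these receptors, fell most among those called, while IRAK4 at −1.60, named after its values were seen, was not called (adjusted p = 0.0160, edgeR). IRAK1 went from 8.09 ± 0.571 CPM of T > C reads to 1.05 ± 0.0559 CPM (SD, n = 3). In all reads 1 of 24 was higher and none lower, against 5.89% and 1.88% of all genes. Of 21 receptors, 7 were tested and TNFRSF1B, the second TNF receptor, was the 1 lower (−1.70), or 14.3%, with none higher and a median of −0.53. In all reads 1 of 11 was lower and 1 higher, against the same 1.88% and 5.89%.

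Of the 35 other listed target genes of NF-kB, 22 were tested, and 8 were lower and 3 higher in T > C reads, with a median of −0.81. The share lower was 36.4%, near the 33% of all tested genes, and the share higher 13.6%, against 2.97%. IRF1 (−3.33), a transcription factor of the interferon response, ICAM1 (−2.40), an adhesion molecule, and CCL2 (−2.21), a chemokine for monocytes, fell most among those called. IRF1 had 19.1, 17.1 and 19.7 CPM of T > C reads in DMSO against 2.38, 1.96 and 1.29 CPM in C646. CXCL8 (2.83), the chemokine interleukin-8, PTGS2 (2.06), the inducible cyclooxygenase, and BCL2A1 (1.62), a BCL2 family survival gene, were the 3 that rose. In DMSO, PTGS2 had only 6, 10 and 1 T > C reads and BCL2A1 18, 9 and 5. Both met the naming rule through C646 alone. CXCL8 had 3.06, 3.05 and 2.29 CPM against 18.9, 20.9 and 20.6 CPM, again without overlap. In all reads 2 of 24 targets were lower and 6 higher, against 1.88% and 5.89% of all genes, at a median of 0.16. Over the 4 lists, 21 of 58 tested genes (36.2%) were lower in T > C reads, near the 33% of all genes, and 3 higher, with a median of −0.88, beside −0.83 for all genes. With TMM on the T > C reads, 5 were lower (TNIP1, TNIP2, IRAK1, IRF1 and JUNB, the last named after its values were seen) and 10 higher of the 58, against 7.8% and 9.14% of all tested genes, with CXCL8, PTGS2 and BCL2A1 among the 10. On that scale the median was −0.49 for the inhibitors, −0.0026 for the signal relay, 0.29 for the receptors and 0.028 for the other targets, beside 0.0075 for all genes.

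The genes most like NFKBIA were EBLN2, MYLIP and DUSP6. Likeness was the root mean square distance over the log2 change of T > C reads, that of all reads and the logit of the DMSO share, each divided by its SD over 7722 genes, and it was 0.132, 0.141 and 0.143. Their DMSO shares were 76.5% ± 5.73, 79.4% ± 2.48 and 71.0% ± 7.84 (SD, n = 3), beside 75.8% for NFKBIA. Their log2 fold changes of T > C reads lay between −0.25 and −0.24, beside −0.23.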

How the data were processed

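Reads of 3′ ends were mapped by the authors to GRCh38 using SLAM-Dunk v0.4.1, and a table of 58136 3′ UTR entries was deposited for each library. The deposited counts of all reads, T > C reads, conversions and multimapped reads are raw. The authors' own comparison required more than a single conversion per read, whereas the deposited T > C reads need 1. The deposited coverage over T positions, a signal without normalization, served for conversions per covered T. The deposited CPM column and the conversion rate, a fraction, were not used, and the CPM in the text are counts per 1000000 of the TMM-scaled total of all reads on 3′ UTRs. T base numbers are all 0 in the table of C646 replicate 3 and were read from the other tables. Symbols matched 25310 of 25420 genes through RefSeq.

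Counts were summed per gene and compared with edgeR 4.0.16 (filterByExpr, glmQLFit, glmQLFTest) in R 4.3.3, with T > C reads set against TMM-scaled totals of all reads. Genes were called when the adjusted p was 0.01 or less and the log2 fold change was 1 or more in size, and the standard error is the fold change over the square root of F. On simulated data, the test of T > C reads recovered 99.0% of genes changed by 2 and 92.6% of those changed by 1.5 on the log2 scale (191 changed genes among 7638), and the test of the odds 94.8% and 77.9%. The simulation raised as many genes as it lowered, gave all genes the same dispersion and had no shift shared by most genes. These rates are therefore not the power in the present data. Shares were compared by two-sided exact permutation tests. Intervals and floors (3 counts) cover counting error only, since PCR copies of a molecule are counted as separate reads. No library repeats another, since within groups the chi-square per degree of freedom between libraries was 7.51 to 25.9. The labels do not say that they were separate cultures, so p-values measure the spread between these libraries.

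The genes and lists were chosen with earlier results of these data known. Of each pathway list, up to 3 called genes per direction with the largest fold change of T > C reads were named, provided that a group averaged 20 or more T > C reads. One stretch of 3′ UTR sequence is not reported here. Alternatives were other scalings, filters and entries, DESeq2 1.42.0, a replicate block, and fits without each library in turn. Python 3.11.15, scipy 1.17.1 and matplotlib 3.10.9 were used.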

Additional observations from a re-analysis of the deposited data

How the results depend on the processing

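Depth limits RELB, NFKB2 and NFKBIZ, which have 0 to 45 T > C reads per library, and the scaling of the T > C reads changes the sign of NFKBIA and the calls of RELA, NFKB1 and NFKBIZ. With TMM on the T > C reads or DESeq2 with size factors from them, 1 of the 6 genes was lower (REL) and 1 higher (NFKBIZ), and of the other 58 pathway genes 5 were lower and 10 higher under each, against 7.8% and 9.14% of all tested genes with TMM and 7.32% and 8.55% with DESeq2. NFKBIA then reversed to 0.61 and 0.58. With a minimum average of 50 T > C reads, 23 other pathway genes were tested, of which 9 were lower and 1 higher, against 36.5% and 4.40% of all genes tested there. With each library left out in turn, 1 to 3 of the other pathway genes (58 to 63 tested) were higher, against 2.52% to 3.15% of all genes, with 1 of 62 without DMSO replicate 3, against 2.65%. The median DMSO share of the 8 genes was 21.8% to 25.1%, against 22.9% with all libraries. NFKBIA in all reads then ranged from −0.13 to 0.017, the odds of NFKBIZ from −0.45 to 0.83 and the difference of its share from −6.71 to 8.72 percentage points. The cause of these changes was not tested. Same-numbered DMSO and C646 libraries had correlations of their deviations, across genes, of 0.030 to 0.065 in T > C reads and −0.0014 to 0.23 in all reads, so the numbers were not taken to pair them. With the replicate block, 3 of the 6 genes were lower and none higher in T > C reads, against 33.5% and 2.93% of all genes, and likewise in the odds, against 35.8% and 0.738%. None was called in all reads, and 21 of 58 other pathway genes were lower and 4 higher in T > C reads. In T > C reads 4 of the genes were lower, in place of 3, against 20.1% to 33.8% of all genes, with plain totals, with DESeq2 on the scale of all reads, and without DMSO replicate 1 or C646 replicate 3 (TNFAIP3 added in each), and with no filter (RELB added). In the odds, 2 of 6 were lower without DMSO replicate 1, against 27.7% of all genes, and 4 of 5 with a minimum average of 50 T > C reads, against 41.8%. With each library left out in turn, 14 to 22 other pathway genes were lower, against 24.9% to 31.8% of all genes, with 14 of 62 without DMSO replicate 3, against 26.2%. Of the alternatives for counts and medians, 88 stayed within 1.5 times the count, or within 1 SD of the median, and 12 did not.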

Other observations

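Some pathway genes outside the naming rule, chosen after their values were seen, passed the cutoffs in all reads. TANK, an adaptor that restrains TRAF signalling, rose by 1.11 on the log2 scale (adjusted p = 0.00391, edgeR's quasi-likelihood test), and its T > C reads were at 1.05 (adjusted p = 0.0114). TLR4, the receptor for lipopolysaccharide, rose by 1.58 in all reads (adjusted p = 0.000178, edgeR), beside 0.69 in T > C reads (adjusted p = 0.122). PLAUR, the urokinase receptor, rose by 1.01 in all reads (adjusted p = 0.000396, edgeR), while its T > C reads were at −0.40 (adjusted p = 0.0659). NFKBID, a nuclear IkB protein, was at −1.69 in all reads and −2.31 in T > C reads, lower in both. JUNB, an AP-1 subunit, was at −1.19 and −1.98, also lower in both. T > C reads of TNFAIP3 carried 3.23 ± 0.190 conversions each in DMSO and 2.93 ± 0.334 in C646 (SD, n = 3), and those of NFKBIA 2.12 ± 0.129 and 2.09 ± 0.239. The means were 2.22 and 1.73 for REL, 2.88 and 2.67 for NFKB1, 2.01 and 1.80 for RELA, and 2.40 and 2.98 for NFKBIZ. In each of these genes the groups overlapped.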
